A study of Homo sapiens with 6 samples.

Results

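Complex I, the NADH:ubiquinone oxidoreductase of the mitochondrial inner membrane, was examined through its nuclear genes with NDUF symbols in SCC4 cells, an established human line from a squamous carcinoma of the tongue. The members were chosen by symbol (NDUFA, NDUFB, NDUFC, NDUFS, NDUFV, NDUFAB or NDUFAF followed by a number) and by a measured level that reached 1 unit in 3 or more of the 6 libraries. There were 46 members among the 16536 genes of the table, 38 named as subunits and 8 as assembly factors (NDUFAF). All 46 matching symbols reached 1 unit in all 6 libraries, so the limit removed none of them. The member value nearest to it was 4.71 units, for NDUFS7 in parental replicate 3, and no matching gene lay below the limit.

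Complex I takes electrons from NADH in its matrix arm, passes them along iron-sulfur clusters to ubiquinone, and pumps protons through its membrane arm. The N module of the matrix arm oxidises NADH and the Q module reduces ubiquinone. The membrane arm is built around subunits encoded by mitochondrial DNA, with many small nuclear-encoded subunits in its proximal and distal parts. Assembly factors help to build the enzyme from these modules and are not part of the finished complex. NDUFA4 carries a complex I name, but its protein is now assigned to complex IV, so it is listed apart below.

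The comparison set 3 sphere libraries against 3 parental libraries. Sphere cells came from SCC4 cells put into suspension culture, which the submitters call isolated cancer stem cells, and parental cells were the adherent SCC4 culture. The labels give no treatment, passage, time in suspension or genetic change, and do not say whether the replicates were separate cultures, so the p-values rest on the spread among these 6 libraries, and that spread may be technical. All 8 epithelial and keratinocyte markers listed for the check were above 0 in every library, and all 8 differed between the groups by limma. KRT5, KRT14, KRT6A, KRT17 and TP63 rose, with a log2 fold change of 2.82 for KRT14, while EPCAM, CDH1 and ITGB4 fell by 0.67, 0.50 and 0.23 on the log2 scale. Of 6 leukocyte markers 2 had a row and 1 was tested, CD14, at 28.9 ± 0.639 units in sphere cells and 14.2 ± 0.957 units in parental cells (SD, n = 3 each, limma adjusted p = 8.52e-05). Of 5 fibroblast markers 2 had a row. COL1A1 fell by 0.36 on the log2 scale. COL1A2, at 1.14 units or less in every library, had a log2 fold change of 0.73 and was not called (limma adjusted p = 0.0709). The part of these differences in the results below was not tested.

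Values are the authors' normalised expression, called units here. The authors name the table TPM, a measure per transcript length, but the length correction could not be checked. The totals were 1007357 to 1134102 units in sphere libraries and 885258 to 1007523 units in parental libraries. Values below 100 units lay on steps of 0.886 to 1.14 units, 1 constant per library, with 91.6% to 100% of them within 0.1 of a whole number of steps. Dividing by the step brought every total to between 998329 and 999527, so a member at 5 or 6 units, such as NDUFS7 or NDUFAF5, is only about that many steps above 0. The read depth behind the values is unknown. Log2 fold changes are sphere minus parental on the log2(units + 1) scale. A gene was called when limma's adjusted p was below 0.05 across the 15034 genes that met the same limit of 1 unit in 3 libraries. In bulk RNA, fewer cells of a type and less RNA per cell cannot be told apart. Erythroid markers, of which 9 of 15 had a row, summed to 1.24, 1225 and 0.312 units in sphere replicates 1 to 3, against 0, 1909.5 and 1308 units in parental replicates 1 to 3. In parental replicate 1, 8 of these 9 markers were listed at 0 and the other, ALAS2, at 4.16e-17 units.

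The promoters below belong to NDUFA1, NDUFV1 and NDUFAF4, 3 of the 4 largest rises among the called members, and to NDUFA8 and NDUFA7, 2 members in which a single parental library stood far above another. They are shown because both kinds of behaviour recur below. Each window runs from 250 bases before to 50 bases after the RefSeq start of the gene, read 5′ to 3′ on the gene's own strand. Capitals mark GCGCATGC, a core of sites for the factor NRF1, CCGGAAG, a core of ETS-family sites, and AAGATGG, a core of YY1 sites, each on either strand.

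NDUFA1, GRCh38.p14 chrX:119871582-119871881, plus strand: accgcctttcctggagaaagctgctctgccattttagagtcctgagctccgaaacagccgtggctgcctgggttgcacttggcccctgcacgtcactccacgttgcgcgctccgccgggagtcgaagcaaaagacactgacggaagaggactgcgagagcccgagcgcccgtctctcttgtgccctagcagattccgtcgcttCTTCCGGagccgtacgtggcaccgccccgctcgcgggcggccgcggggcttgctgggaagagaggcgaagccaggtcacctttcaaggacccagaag

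NDUFV1, GRCh38.p14 chr11:67606686-67606985, plus strand: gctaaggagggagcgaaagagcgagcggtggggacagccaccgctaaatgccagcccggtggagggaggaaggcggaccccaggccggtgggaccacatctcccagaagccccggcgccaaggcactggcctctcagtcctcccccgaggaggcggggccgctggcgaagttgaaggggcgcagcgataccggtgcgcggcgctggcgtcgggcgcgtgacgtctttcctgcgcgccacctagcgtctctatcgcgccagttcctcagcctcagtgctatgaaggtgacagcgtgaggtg

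NDUFAF4, GRCh38.p14 chr6:96897842-96898141, minus strand: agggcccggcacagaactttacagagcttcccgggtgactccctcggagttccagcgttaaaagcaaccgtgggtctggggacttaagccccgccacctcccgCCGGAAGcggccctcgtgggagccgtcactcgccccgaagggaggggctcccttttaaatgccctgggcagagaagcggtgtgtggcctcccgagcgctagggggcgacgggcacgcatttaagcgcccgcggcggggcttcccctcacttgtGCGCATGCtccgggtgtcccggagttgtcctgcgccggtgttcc

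NDUFA8, GRCh38.p14 chr9:122159730-122160029, minus strand: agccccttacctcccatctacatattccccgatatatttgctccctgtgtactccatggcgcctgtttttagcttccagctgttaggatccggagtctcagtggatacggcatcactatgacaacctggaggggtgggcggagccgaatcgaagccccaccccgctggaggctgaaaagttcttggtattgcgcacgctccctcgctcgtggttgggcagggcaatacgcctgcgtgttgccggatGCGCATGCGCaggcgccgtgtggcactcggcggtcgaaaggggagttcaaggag

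NDUFA7, GRCh38.p14 chr19:8321326-8321625, minus strand: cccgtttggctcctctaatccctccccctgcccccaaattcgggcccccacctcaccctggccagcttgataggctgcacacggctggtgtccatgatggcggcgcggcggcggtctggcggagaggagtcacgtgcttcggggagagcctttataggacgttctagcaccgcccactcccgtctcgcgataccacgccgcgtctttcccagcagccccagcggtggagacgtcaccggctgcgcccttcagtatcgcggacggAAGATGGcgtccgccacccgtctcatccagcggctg

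RefSeq promoter windows were found for 39 of the 46 members. The NRF1 letters were in 8 of the 39 members (20.5%), against 6.21% of the 10504 tested genes with a window and 3.05% of all 35116 windows in the table. The YY1 letters were in 10 of the 39 members (25.6%), against 9.27% of tested genes and 5.84% of all windows. The ETS letters were in 7 of the 39 members (17.9%), against 21.8% of tested genes and 10.3% of all windows. A gene can have more than 1 window, so shares of windows compare only with shares of windows. Of the 51 member windows 15.7% held the NRF1 letters, 21.6% the YY1 letters and 15.7% the ETS letters. Matches to different motifs overlapped in 0 member windows. In the NDUFA8 window the NRF1 letters and their reverse complement overlap each other. NDUFV1 has none of these letters in its window, and among the 8 called members with a window 1 held the NRF1 letters, 3 the ETS letters and 1 the YY1 letters.

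Of the 46 members, 10 were higher in sphere cells and 0 were lower by limma, which is 21.7% called, against 48.7% of all tested genes. Higher calls made up 25.8% and lower calls 22.9% of all tested genes. Subunits accounted for 9 of the 10, among 38 (23.7%), and assembly factors for 1 of 8 (12.5%). The median log2 fold change was 0.05 for subunits and 0.05 for assembly factors, against 0.04 for all tested genes in the fit to all libraries. The subunit median minus the all-gene median was 0.0069 in that fit and moved with single libraries, to -0.071, 0.12 and 0.097 when parental replicates 1, 2 and 3 were left out in turn and to 0.077, -0.038 and 0.11 when sphere replicates 1, 2 and 3 were. It was 0.10 without parental replicates 2 and 3 and sphere replicate 2. Sphere and parental libraries did not overlap for 12 of the 46 members, against 65.0% of all tested genes. These 12 are the 10 called members, NDUFA5 and NDUFAF2.

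**Figure D1:**
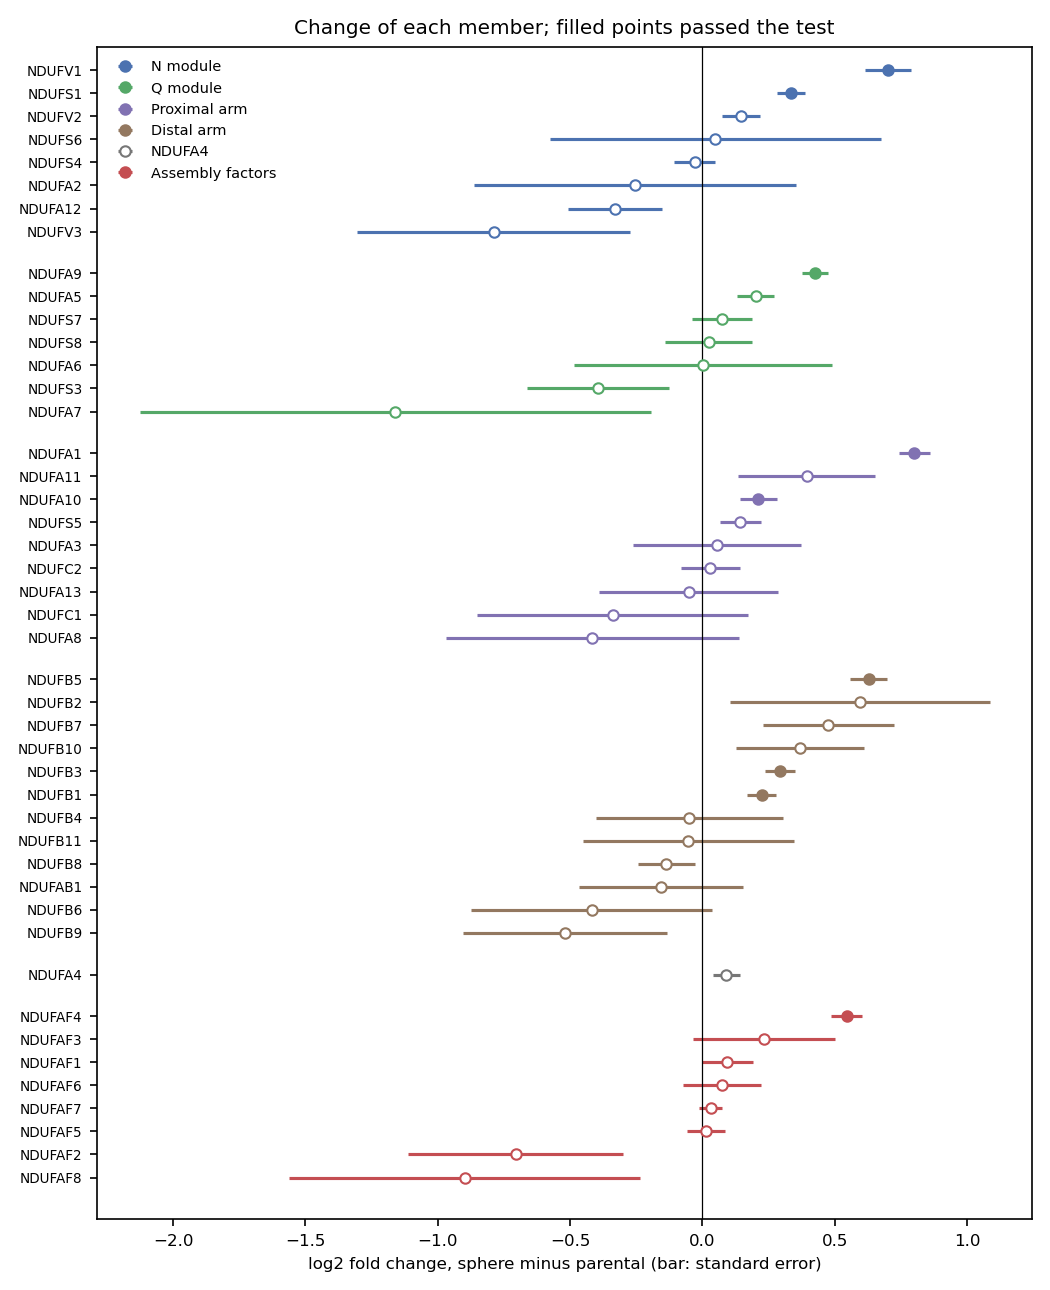
Log2 fold change (sphere minus parental, log2(units + 1) scale) of 45 members with its standard error, ordered by part of the enzyme. The 9 filled points passed the test and all lie to the right of 0, with NDUFA1 farthest at 0.80, while the widest bars belong to NDUFA7, NDUFAF8 and NDUFS6.

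In the N module, which holds the NADH site, 2 of 8 members rose and 0 fell. The rises are 25.0% of the module, near the 25.8% of all tested genes called higher. NDUFV1 (ENSG00000167792), which carries the flavin that accepts electrons from NADH, had 234, 244 and 219 units in sphere replicates 1 to 3, against 137, 131 and 160 units in parental replicates 1 to 3. All 3 sphere libraries lay above all 3 parental libraries, and the log2 fold change was 0.70 (SE 0.0862, limma adjusted p = 0.00113). NDUFS1 (ENSG00000023228), the largest subunit of the matrix arm and a carrier of iron-sulfur clusters, had 33.1, 31.8 and 33.3 units in sphere libraries, against 26.6, 24.2 and 26.5 units in parental libraries. It rose by a log2 value of 0.33 (SE 0.0517, adjusted p = 0.00285). NDUFV2, the partner of NDUFV1 with an iron-sulfur cluster of its own, had the highest mean of all subunits, 546 units over the 6 libraries. It averaged 574 ± 41.9 units in sphere cells and 519 ± 24.5 units in parental cells (SD, n = 3 each) and did not pass the test (limma adjusted p = 0.154). The other 5 N-module members, NDUFS4, NDUFS6, NDUFA2, NDUFA12 and NDUFV3, had log2 fold changes of -0.79 to 0.05 and did not pass it either.

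The Q module, where ubiquinone is reduced, likewise had 2 rising genes among 8 (25.0%, against 25.8% of all tested genes). NDUFA9 (ENSG00000139180), an accessory subunit next to the ubiquinone site, had 38.2, 35.3 and 35.3 units in sphere libraries, against 26.6, 26.2 and 27.4 units in parental libraries. Every sphere library was above every parental library, with a log2 fold change of 0.42 (SE 0.0483, limma adjusted p = 0.000827). NDUFA5 also had groups that did not overlap, at 52.7, 48.9 and 46.4 units in sphere libraries against 45.3, 43.4 and 39.7 units in parental libraries, but missed the threshold (adjusted p = 0.0585). NDUFS7, a core subunit with an iron-sulfur cluster, had the lowest level of all members, 5.64 ± 0.438 units in sphere cells and 5.33 ± 0.807 units in parental cells (adjusted p = 0.613).

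In the proximal membrane arm, NDUFA1 and NDUFA10 rose, 2 of 9 members (22.2%, against 25.8% of all tested genes). NDUFA1 (ENSG00000125356), a small subunit of this arm needed for assembly of the enzyme, had the largest rise of all 46 members, with 243, 260 and 263 units in sphere libraries, against 142, 141 and 156 units in parental libraries. The lowest sphere library stood well above the highest parental one, and the ratio of group means was 1.75 (log2 fold change 0.80, SE 0.0581, limma adjusted p = 0.000167). NDUFA10 (ENSG00000130414), a subunit with a nucleoside kinase fold, had 82.7, 81.8 and 78.7 units in sphere libraries, against 70.9, 63.5 and 75.7 units in parental libraries. Its log2 fold change of 0.21 (SE 0.0695) was only just called (adjusted p = 0.0491). NDUFS5, the second most abundant subunit here, averaged 563 ± 15 units in sphere cells and 511 ± 46.9 units in parental cells and did not pass the test (adjusted p = 0.185).

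In the distal membrane arm 3 of 12 members rose (25.0%, against 25.8% of all tested genes) and 0 fell. NDUFB5 (ENSG00000136521), an accessory subunit of this arm, had 130, 117 and 121 units in sphere libraries, against 81.6, 72.6 and 83.2 units in parental libraries (log2 fold change 0.63, SE 0.0692, limma adjusted p = 0.000724). NDUFB3 (ENSG00000119013) had 191, 183 and 196 units in sphere libraries, against 157, 145 and 163 units in parental libraries (log2 fold change 0.29, SE 0.0555, adjusted p = 0.00641). NDUFB1 (ENSG00000183648) had 43.4, 48.8 and 48.4 units in sphere libraries, against 39.9, 39.3 and 40.7 units in parental libraries (log2 fold change 0.22, SE 0.0552, adjusted p = 0.0182). No library of one group reached into the range of the other in these 3 genes. NDUFA4, set apart above, averaged 322 ± 7.73 units in sphere cells and 303 ± 15.3 units in parental cells and did not pass the test (adjusted p = 0.208).

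**Figure D2:**
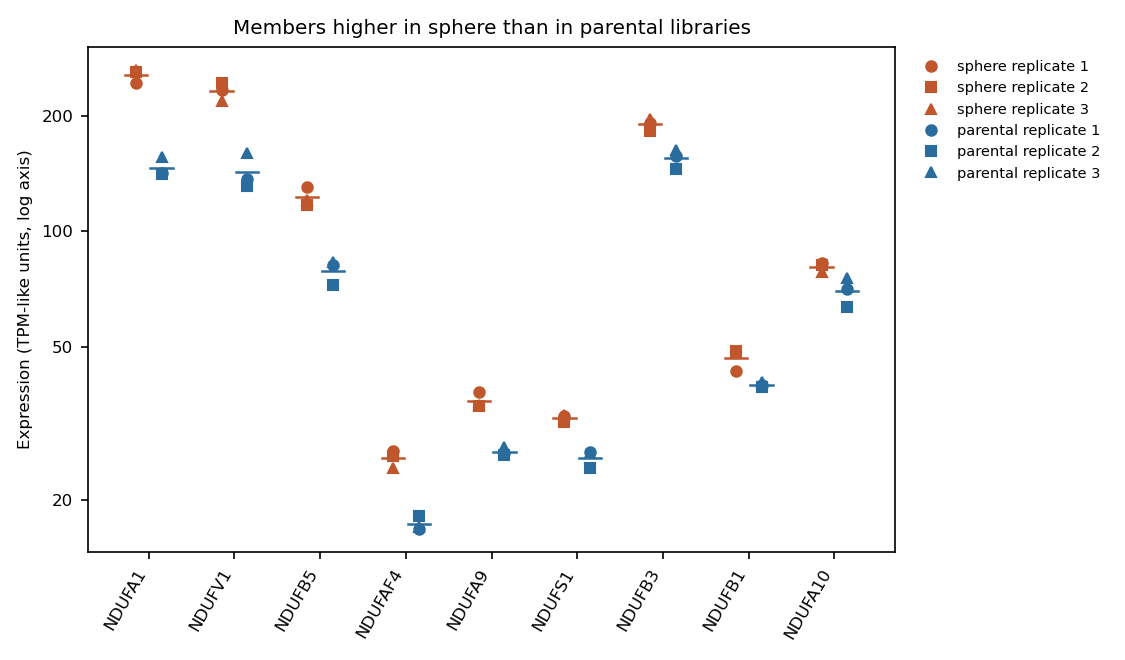
Expression in each library (units, log axis) of 9 members higher in sphere cells, with sphere libraries at the left of each pair and horizontal lines at the group means. In every gene the 3 sphere points lie above the 3 parental points, from NDUFA1 with a log2 fold change of 0.80 to NDUFA10 with 0.21.

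NDUFA1, NDUFV1, NDUFB5 and NDUFAF4, which is described below, kept their calls in every alternative run, each single library left out included. With columns brought to equal totals, which undoes the authors' scaling between libraries, 3 subunits rose, against 15.2% of all tested genes, and 1, NDUFA12, was lower. Among called genes of the whole table, the share that was higher was 37.7% in that fit and 53.0% in the deposited scaling, and the all-gene median moved by -0.15 on the log2 scale. The difference of the subunit and all-gene medians was -0.0067 after undoing it. Without mitochondrially encoded genes in the totals, 4 subunits rose, against 16.0% of all tested genes. The calls of NDUFS1, NDUFB3, NDUFB1 and NDUFA10 ended in both of these fits, and that of NDUFA9 with the scaling undone. NDUFB1 also lost its call without parental replicate 1, sphere replicate 2 or sphere replicate 3 (adjusted p = 0.0552, 0.0615 and 0.0646), and NDUFA10 kept its call in only 1 of the 6 fits without 1 library, that without parental replicate 3.

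Among the assembly factors NDUFAF4 alone was called. NDUFAF4 (ENSG00000123545), which works with NDUFAF3 on the early Q module, had 26.9, 26.1 and 24.2 units in sphere libraries, against 16.8, 18.1 and 17.0 units in parental libraries. The groups were well separated, with a log2 fold change of 0.54 (SE 0.0581, limma adjusted p = 0.00064). NDUFAF3 itself had 36.2, 45.2 and 34.3 units in sphere libraries, against 27.3, 25.2 and 49.4 units in parental libraries, where parental replicate 3 lay above every sphere library (adjusted p = 0.499). Without parental replicate 3 it passed the test (log2 fold change 0.53, adjusted p = 0.0217).

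Most of the other assembly factors were low and close between the groups. NDUFAF1, of the complex that builds the proximal membrane arm, averaged 29.5 ± 2.35 units in sphere cells and 27.7 ± 3.17 units in parental cells. NDUFAF5, a hydroxylase of an arginine of NDUFS7, averaged 6.35 ± 0.395 units in sphere cells and 6.29 ± 0.296 units in parental cells. NDUFAF6 averaged 12.6 ± 2.09 units in sphere cells and 11.9 ± 1.64 units in parental cells. NDUFAF7, a methyltransferase, averaged 18.7 ± 0.48 units in sphere cells and 18.2 ± 0.344 units in parental cells (SD, n = 3 each). None of these 4 passed the test, with limma adjusted p between 0.457 for NDUFAF1 and 0.9 for NDUFAF5. NDUFAF5 was lower with quantile normalization (log2 fold change -0.12, adjusted p = 0.042).

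The remaining 2 assembly factors had 1 parental library far from the rest. NDUFAF2, a paralog of NDUFA12 that stands in its place during assembly, had 109, 115 and 113 units in sphere libraries, against 129, 362 and 132 units in parental libraries. All 3 sphere libraries lay below all 3 parental ones, yet the spread among the parental libraries kept it from a call (log2 fold change -0.71, SE 0.406, limma adjusted p = 0.207). Without parental replicate 2 it was called lower (log2 fold change -0.22, adjusted p = 0.0124). NDUFAF8, a partner of NDUFAF5, had 53.8, 79.1 and 57.5 units in sphere libraries, against 60.1, 347 and 77.1 units in parental libraries (adjusted p = 0.31).

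Single libraries of this kind recurred among the members. A gene was said to stand apart when 1 library was at least 2 times, or at most 0.5 times, the nearest of the other 2 libraries of its group, with a group maximum of at least 5 units. By this measure 13 of the 46 members stood apart (28.3%), against 4.04% of all tested genes and 7.01% of the 3125 tested genes that averaged 50 units or more. They were 11 of 38 subunits (28.9%) and 2 of 8 assembly factors (25.0%). NDUFA13 was the member just inside the limit, with a ratio of 2.09, and NDUFB11 the one just outside, with 1.88. The 13 include 3 of the N module, 2 of the Q module, 3 of the proximal arm and 3 of the distal arm, the other 2 being the assembly factors. No test was made of these shares.

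Parental replicate 2 and sphere replicate 2 held most of these values. Parental replicate 2 was at least 2 times both other parental libraries in 9 members, against 1.72% of all tested genes, and sphere replicate 2 was so in 5 members, against 1.21%. Parental replicate 3 was so in 1 member, NDUFC1, and parental replicate 1 was at most 0.5 times the others in 2, NDUFA7 and NDUFB9. Sphere replicates 1 and 3 stood apart in 0 members. These libraries, parental replicates 2 and 3 and sphere replicate 2, are those with the erythroid sums given above, and the part of that feature in these values was not tested.

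**Figure D3:**
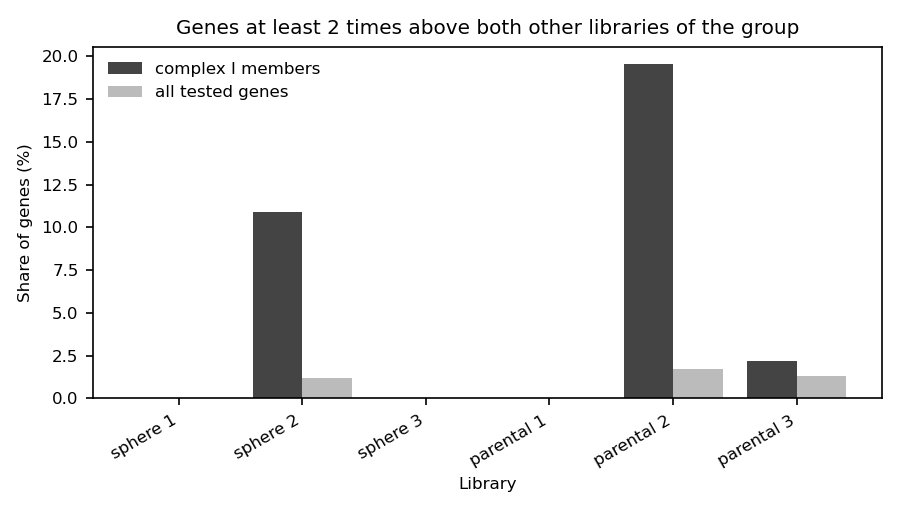
Share of the 46 members (dark bars) and of all 15034 tested genes (light bars), in percent, whose value in a library is at least 2 times both other libraries of its group. Parental 2 holds 19.6% of members and 1.72% of all genes, sphere 2 holds 10.9% and 1.21%, and the bars of sphere 1, sphere 3 and parental 1 are at or near 0.

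NDUFA7 (ENSG00000267855), a small accessory subunit of the matrix arm, had the widest spread. It stood at 79.7, 185 and 71.6 units in sphere replicates 1 to 3, against 59.0, 809 and 250 units in parental replicates 1 to 3. Parental replicate 1, the lowest of all, and parental replicate 2, the highest, bracketed the whole sphere range, and the fitted log2 fold change of -1.16 had a standard error of 0.965. With parental replicates 2 and 3 and sphere replicate 2 left out, which leaves a single parental library, the same gene had a log2 fold change of 0.35. Its gene model overlaps those of RPS28, a ribosomal protein gene on the opposite strand, and AC010323.1 on the same strand, in GENCODE 29. RPS28 had 110, 852 and 112 units in sphere libraries, against 88.1, 96.8 and 196 units in parental libraries. The highest of these RPS28 values was in sphere replicate 2. The part of the overlapping genes in the NDUFA7 values was not tested.

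NDUFA8 (ENSG00000119421), a subunit of the intermembrane face of the proximal arm, had 379, 383 and 350 units in sphere libraries, against 297, 1248 and 326 units in parental libraries. The 3 sphere values were close together and lay between the parental extremes. Without parental replicate 2 the direction turned, and the gene was called higher in sphere cells (log2 fold change 0.25, limma adjusted p = 0.0334), against -0.42 with all libraries (adjusted p = 0.56). NDUFV3, a small subunit bound to the NADH site's module, had 15.5, 19.2 and 15.1 units in sphere libraries, against 17.2, 69.5 and 20.6 units in parental libraries. Apart from parental replicate 2 its 5 libraries lay within a narrow range.

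A set of members was high in the second replicate of both groups. NDUFS6, a zinc-binding subunit of the N module, had 124, 334 and 127 units in sphere libraries, against 93.0, 374 and 137 units in parental libraries. NDUFA6, which binds the acyl carrier protein NDUFAB1, had 193, 451 and 191 units in sphere libraries, against 181, 458 and 200 units in parental libraries. NDUFA2, an N-module subunit with a thioredoxin-like fold, had 89.1, 259 and 75.7 units in sphere libraries, against 81.6, 262 and 140 units in parental libraries. In these 3 genes the groups had nearly the same range and the fold changes, between -0.26 and 0.05 on the log2 scale, were well inside their errors. Without parental replicates 2 and 3 and sphere replicate 2, which leaves a single parental library, NDUFS6 had a log2 fold change of 0.43.

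NDUFB6, of the distal arm, had 109, 173 and 91.8 units in sphere libraries, against 101, 307 and 133 units in parental libraries. NDUFA13, also known as GRIM-19 and part of the proximal arm, had 304, 424 and 295 units in sphere libraries, against 260, 584 and 280 units in parental libraries. Both were highest in parental replicate 2 and, within their group, in sphere replicate 2. NDUFB9, of the distal arm, had 82.7, 131 and 73.6 units in sphere libraries, against 77.2, 181 and 169 units in parental libraries. Without parental replicate 1 NDUFB9 was called lower in sphere cells (log2 fold change -0.91, limma adjusted p = 0.044), as was NDUFA12 (log2 fold change -0.52, adjusted p = 0.00949).

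A further pattern joined parental replicate 3 with sphere replicate 2. NDUFB2, of the distal arm, had 42.5, 123 and 38.4 units in sphere libraries, against 31.7, 32.3 and 56.0 units in parental libraries. NDUFC1, of the proximal arm, had 34.2, 64.0 and 31.3 units in sphere libraries, against 38.5, 33.3 and 109 units in parental libraries. Below the limit of 2 times, NDUFB11, NDUFA3, NDUFAF3, NDUFB10, NDUFA11 and NDUFB7 were also highest in these 2 libraries. Among all 46 members, 16 had their highest sphere value in replicate 2 and their highest parental value in replicate 3 (34.8%, against 15.6% of all tested genes), and 14 had both in replicate 2 (30.4%, against 15.2%). Sphere replicate 2 held the highest sphere value of 30 members (65.2%), against 41.3% of all tested genes. Parental replicate 3 held the highest parental value of 26 members (56.5%), against 34.0% of all tested genes. For parental replicate 2 the shares were 34.8% of members and 36.1% of all tested genes.

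**Figure D4:**
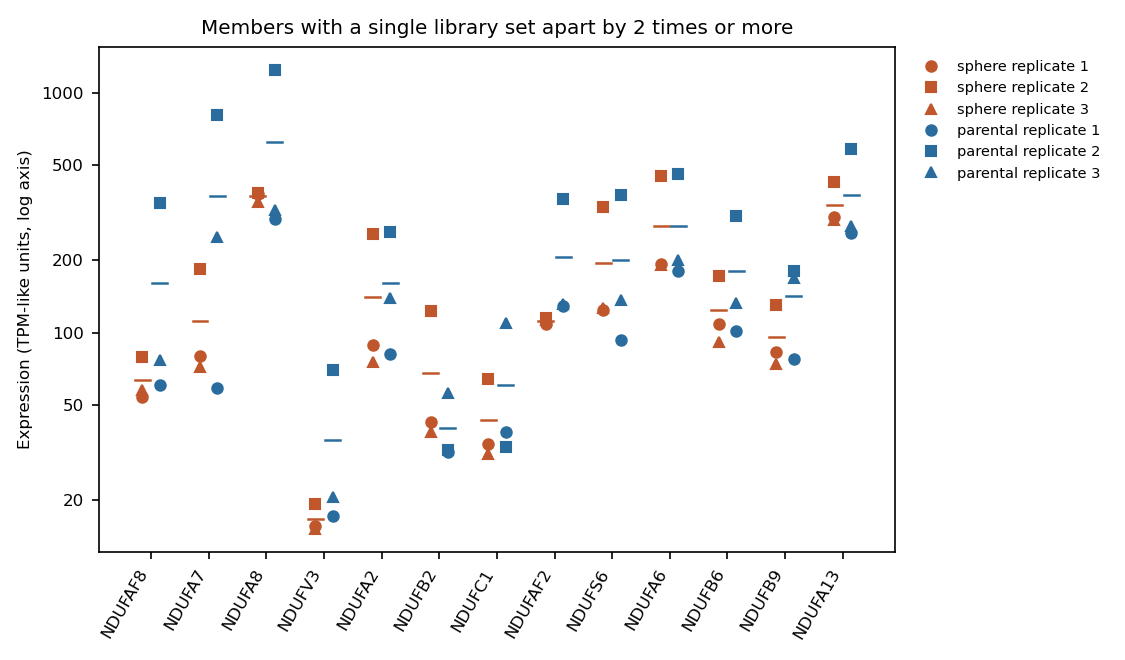
Expression in each library (units, log axis) of the 13 members with a library at least 2 times from the nearest other library of its group, with sphere libraries at the left of each pair and lines at the group means. Parental replicate 2 (blue squares) is the top parental point in 11 of the 13 genes, reaching 1248 units in NDUFA8 and 809 units in NDUFA7.

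**Figure D5:**
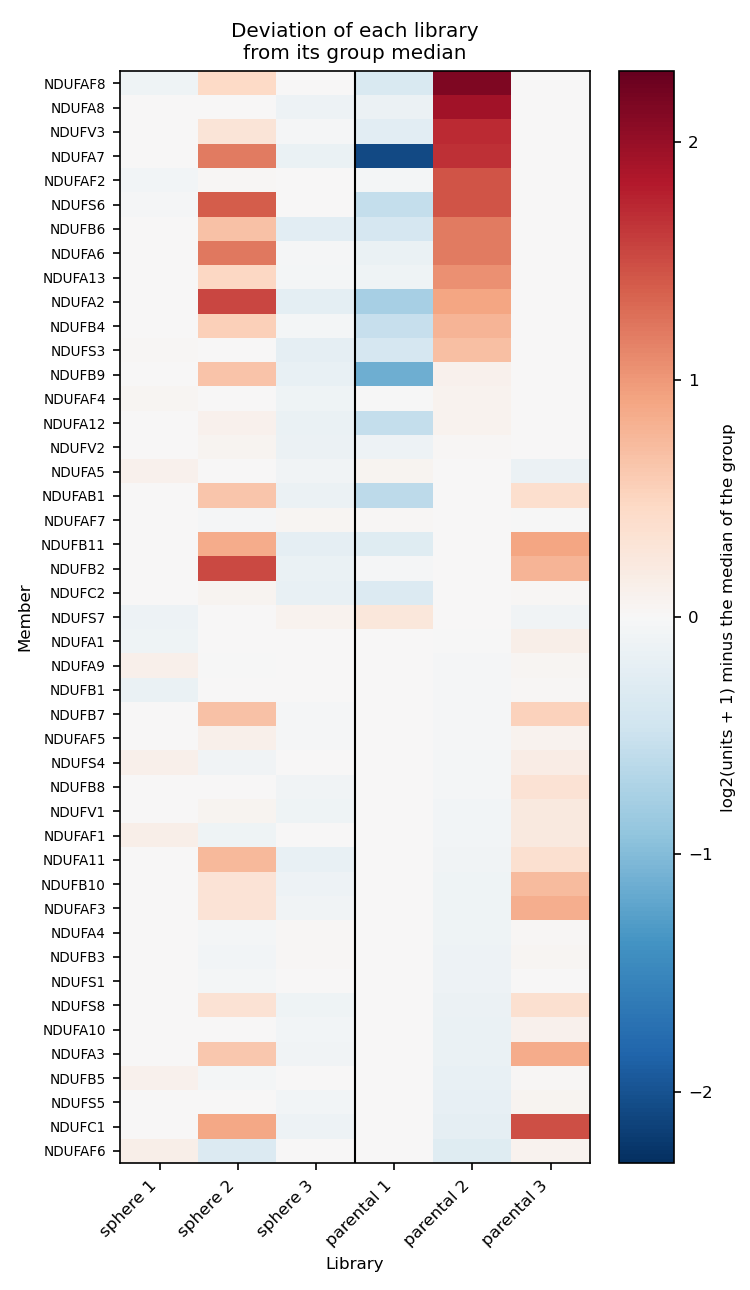
Deviation of each library from the median of its own group, in log2(units + 1), for 45 members, sorted by parental 2. Red marks values above the group median: parental 2 is red in the upper rows from NDUFAF8 to NDUFS3, parental 3 in lower rows such as NDUFC1 and NDUFA3, and sphere 2 in rows of both kinds.

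The spread carried over into the summed level of the nuclear NDUF transcripts. These sums leave out the subunits encoded by mitochondrial DNA. The 38 genes named as subunits, NDUFA4 included, summed to 6408, 8164 and 6050 units in sphere libraries, against 5348, 8963 and 6990 units in parental libraries. Leaving out the 11 subunits that stood apart, the other 27 summed to 4955, 5618 and 4689 units in sphere libraries, against 4111, 4605 and 5170 units in parental libraries. In both sums the groups overlapped. The 8 assembly factors summed to 297, 328 and 296 units in sphere libraries, against 297, 812 and 345 units in parental libraries, of which NDUFAF2 and NDUFAF8 made up most in parental replicate 2. The standard error of the log2 fold change had a median of 0.512 over the 13 members that stood apart and of 0.0862 over the other 33, against 0.0884 over all tested genes. All 10 calls were among those 33 members, as the spread within groups enters the test's error.

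Leaving out parental replicates 2 and 3 and sphere replicate 2, 11 subunits were higher and 0 lower, and 2 assembly factors were higher, NDUFAF3 and NDUFAF4. In the same fit 23.3% of all tested genes were higher. This fit sets 2 sphere libraries against a single parental library, which is assumed to vary like the sphere libraries. Of the 9 subunits called with all libraries, 7 were called here too, all but NDUFA10 and NDUFB1. The added ones, NDUFB4, NDUFB7, NDUFB10 and NDUFS6, had log2 fold changes of 0.37, 0.41, 0.45 and 0.43 here. Parental replicate 1, the parental library left, had the lowest subunit sum of all libraries, 5348 units. It held the highest parental value of 4 of the 46 members (8.70%), against 29.8% of all tested genes. In NDUFB4 it had 157 units, against 390 and 227 units in parental replicates 2 and 3. The part of this low library in the added rises was not tested.

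Some members can share reads with other genes. In GENCODE 29, in which all 46 identifiers were found, 13 members have an exon that overlaps another gene on the same strand and 20 have one that overlaps a gene on the opposite strand. Named pseudogenes, 59 in all, exist for 19 members, with 12 each for NDUFA5 and NDUFB4. Use of strand in counting is not stated, and reads of genes that overlap on opposite strands cannot be told apart without it. For genes that overlap on the same strand, strand does not separate the reads. Of the 13 members that stood apart, 4 overlap a gene on the same strand, 6 one on the opposite strand and 4 have named pseudogenes, while NDUFAF2, NDUFAF8 and NDUFV3 have none of these.

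Of 14 other complex I assembly factors, without NDUF names, 6 rose (42.9%) and 0 fell, with a median log2 fold change of 0.14. Of all tested genes 25.8% were called higher and 22.9% lower, with a median of 0.04. ACAD9, which forms an assembly complex with NDUFAF1, ECSIT and TMEM126B, averaged 43.0 ± 1.49 units in sphere cells and 24.2 ± 0.88 units in parental cells (SD, n = 3 each, limma adjusted p = 7.94e-05). NUBPL, which delivers iron-sulfur clusters, averaged 12.7 ± 0.378 units in sphere cells and 9.12 ± 0.31 units in parental cells (adjusted p = 0.00117). TMEM126B and COA1 had log2 fold changes of 0.29 and 0.20. Only ACAD9 and NUBPL, 2 of the 14, rose when the scaling was undone or mitochondrially encoded genes were left out. In those fits 15.2% and 16.0% of all tested genes were higher. TMEM70 and TMEM126A stood apart in parental replicate 2, at 354 and 468 units, with 54.3 and 155 units as the nearest parental values.

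The 7 complex I subunits encoded by mitochondrial DNA included 4 that rose, MT-ND4, MT-ND4L, MT-ND5 and MT-ND6, and 0 that fell, and 0 of the 7 stood apart. The rises are 57.1% of the 7, against 25.8% of all tested genes called higher. MT-ND6 averaged 4540.2 ± 229 units in sphere cells and 3186 ± 166 units in parental cells (limma adjusted p = 0.00573). No call among the 7 was left after quantile normalization, with the scaling undone or without the 3 libraries with erythroid sums, and 1 to 3 of them were called in the fits without 1 library.

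Nuclear genes of complexes II to V also included both rising genes and genes that stood apart. Of 38 listed, 16 rose (42.1%) and 0 fell, with a median log2 fold change of 0.26, and 11 stood apart (28.9%). Of all tested genes 25.8% were called higher and 22.9% lower, and 4.04% stood apart. SDHA, the flavoprotein of complex II, averaged 168 ± 7.7 units in sphere cells and 96.2 ± 6.68 units in parental cells (limma adjusted p = 0.000235). COX7A2, a complex IV subunit, averaged 395 ± 16.6 units in sphere cells and 249 ± 9.37 units in parental cells (adjusted p = 0.000206). With the scaling undone 7 of the 38 rose and 1 fell, and 15.2% of all tested genes were higher. The difference between this list and the complex I members was not tested.

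Among 10 regulators of mitochondrial gene expression, 5 rose and 2 fell. That is 70.0% called, against 48.7% of all tested genes (25.8% higher and 22.9% lower). With the scaling undone or mitochondrially encoded genes left out, 3 rose, PPARGC1A, PPARGC1B and TFAM, and the calls of ESRRA and GABPA ended. In those fits 15.2% and 16.0% of all tested genes were higher. PPARGC1A, a coactivator of mitochondrial biogenesis, averaged 9.5 ± 0.511 units in sphere cells and 1.27 ± 0.647 units in parental cells (log2 fold change 2.25, limma adjusted p = 0.000306). Its parental values, 0.857, 2.01 and 0.933 units in replicates 1 to 3, were close to the step of about 1 unit. PPARGC1B, its relative, rose by a log2 value of 0.81, with a parental mean of 2.2 units, also only a few steps above 0. TFAM, which packages and transcribes mitochondrial DNA, rose by 0.31. GABPB1, a subunit of an ETS-family factor, and NRF1, which binds many promoters of respiratory genes, fell by 0.44 and 0.31 on the log2 scale. For NRF1 the adjusted p was above 0.05 in all leave-one-out fits but that without parental replicate 2, and without mitochondrially encoded genes, and 0 regulators were lower without the 3 libraries with erythroid sums.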

How the data were processed

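Total RNA of 3 sphere and 3 parental SCC4 samples was read by single-end BGISEQ sequencing, according to the labels. HISAT, Bowtie2 and the mouse build GRCm38.p6 appear in the submitters' processing notes, although the gene identifiers are human; the sources used here give no quantifier, annotation or filter. The deposited table is named TPM, but its column totals differ, so its values are treated as a signal, the authors' normalised expression. They lie on steps near 1 unit with nearly the same number of steps in every library, so a step was not taken to be a read and count models were not used. Values as small as 4.16e-17 (ALAS2) occur, and the step that made them is not given.

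Values were analysed as log2(value + 1) with limma 3.58.1 in R 4.3.3 (2-group model, mean trend, two-sided, Benjamini-Hochberg adjustment over 15034 genes). The procedure was tested on simulated data with equal noise in all genes and libraries, so not on libraries that stand apart. Fold changes of low genes are understated. Errors after ± are SDs over 3 libraries. Named in the text are every assembly factor, up to 12 called subunits with the smallest p, members that stand apart, the 3 highest and 3 lowest subunits and up to 4 called genes of other lists; NDUFA4, NDUFA5, NDUFA12, NDUFB11, members named only in counts, TMEM70, TMEM126A, RPS28, NRF1, ESRRA, GABPA and the cell type markers were added after their values were seen. Of the 46 members, 1 is included in counts and sums but is not reported by name or drawn here. Members and lists were chosen with earlier results of these data known. Alternatives changed the pseudocount, filter, scaling, variance model, replicate block or libraries used. Promoters and names are from RefSeq (GRCh38.p14), gene models from GENCODE 29.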

Additional observations from a re-analysis of the deposited data

How the results depend on the processing

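Across the alternatives 5482 to 7667 genes were called. Higher subunits numbered 3 after undoing the scaling and 4 without mitochondrially encoded genes, against 9, and were 7 to 10 without 1 library. Lower subunits numbered 1 with the scaling undone and 0 to 2 without 1 library, against 0. Higher assembly factors numbered 2 without the 3 libraries with erythroid transcripts and 1 to 2 without 1 library, against 1, and lower ones 1 with quantile normalization and 0 to 1 without 1 library, against 0. The causes were not tested. At a limit of 3 times, 4 members stood apart (NDUFA7, NDUFA8, NDUFAF8 and NDUFV3), against 13 at 2 times. The subunit median minus the assembly factor median was 0 to 2 decimals and lay between -0.090 and 0.16 without 1 library.

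Of the 31 named members some changed the sign of the log2 fold change; of those sign changes, NDUFA8 without parental replicate 2 and NDUFAF5 with quantile normalization were called. Without the 3 libraries with erythroid transcripts the values were NDUFA13 0.20, NDUFA2 0.0089, NDUFA7 0.35, NDUFA8 0.29, NDUFAF5 -0.013, NDUFB9 0.015, NDUFS7 -0.13. With quantile normalization the values were NDUFA6 -0.028, NDUFAF5 -0.12, NDUFAF6 -0.035, NDUFAF7 -0.0065, NDUFS7 -0.10. With the scaling undone the values were NDUFA6 -0.16, NDUFAF1 -0.063, NDUFAF5 -0.13, NDUFAF6 -0.076, NDUFAF7 -0.12, NDUFS5 -0.020, NDUFS6 -0.11, NDUFS7 -0.064, NDUFV2 -0.018. Without mitochondrially encoded genes the values were NDUFA6 -0.10, NDUFAF1 -0.0043, NDUFAF5 -0.078, NDUFAF6 -0.021, NDUFAF7 -0.066, NDUFS6 -0.052, NDUFS7 -0.013. With array weights the values were NDUFS7 -0.0023. Over the fits without 1 library the ranges were NDUFA13 -0.26 to 0.32, NDUFA2 -0.80 to 0.17, NDUFA6 -0.41 to 0.42, NDUFA8 -0.78 to 0.25, NDUFAF5 -0.031 to 0.045, NDUFAF6 -0.033 to 0.20, NDUFB6 -0.75 to 0.047, NDUFC1 -0.66 to 0.19, NDUFS6 -0.42 to 0.62.

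Same-numbered libraries share a number in their labels, and whether they were paired is not stated. The correlations of their deviations from the group means were 0.329, 0.121 and -0.273 for replicates 1, 2 and 3. Sphere replicate 2 correlated more with parental replicate 3 (0.341) than with parental replicate 2. With the replicate block 6176 genes, 9 higher subunits and 1 assembly factor were called; NDUFA10 lost its call (adjusted p = 0.0999) and NDUFA5 gained one. Depth is unknown, and so is the authors' processing after quantification, whose effect on the spread between libraries was not tested.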
